A study of Homo sapiens with 24 samples.

Results

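The 7 APOBEC3 genes of human chromosome 22 (APOBEC3A, APOBEC3B, APOBEC3C, APOBEC3D, APOBEC3F, APOBEC3G and APOBEC3H) were followed across 24 RNA-seq libraries of U87-T cells. They are 7 of the 57736 genes in the count table, taken as a named gene family and matched by Ensembl gene ID to their GENCODE symbols. The family was chosen with earlier results of these data known, but no measured value set which genes belong to it. U87-T is a human glioblastoma line, U87 transduced with TERT. The DAXX series holds DAXX WT and DAXX_KO cells and the ATRX series ATRX WT and ATRX_KO cells, where WT is the sgControl line of U87-T, which holds an empty Cas9 vector. In each series both kinds of cells were assayed without drug (the control group, called untreated in the labels and DMSO in the study) and with etoposide, an inhibitor of topoisomerase II that leaves DNA double-strand breaks. Each of the 8 groups has 3 libraries. The dose and time of etoposide for these libraries were not given in the sources used here. DAXX_KO and ATRX_KO are each 1 single-cell clone, selected after knockout and carrying features of alternative lengthening of telomeres (ALT), so the knockout, the clone and its selection cannot be told apart. In the labels, the genotype field of the libraries titled DAXX KO reads ATRX KO, and the titles were followed.

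APOBEC3 proteins are zinc-dependent cytidine deaminases that turn cytosine into uracil in single-stranded DNA. They restrict retroviruses and retrotransposons, and APOBEC3A and APOBEC3B are also known as sources of clustered C-to-T and C-to-G mutations in tumour genomes. Uracil left in DNA is removed by the glycosylase UNG and repaired as an abasic site. The family arose by tandem duplication, and members differ in whether they carry a single zinc-binding deaminase domain or a pair of them.

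All 7 genes lie head to tail on the plus strand of chromosome 22 (GRCh37), within 151.327 kb. APOBEC3A (ENSG00000128383) spans 39348746 to 39359189, APOBEC3B (ENSG00000179750) 39378352 to 39388809, APOBEC3C (ENSG00000244509) 39410262 to 39416357 and APOBEC3D (ENSG00000243811) 39417118 to 39429282. APOBEC3F (ENSG00000128394) follows at 39436609 to 39451977, APOBEC3G (ENSG00000239713) at 39473072 to 39483748 and APOBEC3H (ENSG00000100298) at 39493229 to 39500072. A search of each coding sequence for the zinc-binding pattern of histidine, glutamate and a pair of cysteines found 1 copy in APOBEC3A (199 codons), APOBEC3C (190 codons) and APOBEC3H (183 codons). It found 2 copies in APOBEC3B (382 codons), APOBEC3D (386 codons), APOBEC3F (373 codons) and APOBEC3G (384 codons).

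The coding stretches across 4 of these catalytic centres are shown because they make the kinship of the members visible. They were read from the annotated GRCh37 transcripts, 5′ to 3′, with the codons of the zinc-binding histidine, the catalytic glutamate and the 2 zinc-binding cysteines in capitals.
APOBEC3A, codons 70 to 106, also the second domain of APOBEC3B, codons 253 to 289: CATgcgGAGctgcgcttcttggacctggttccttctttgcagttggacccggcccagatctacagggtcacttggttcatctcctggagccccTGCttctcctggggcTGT
APOBEC3C, codons 66 to 100: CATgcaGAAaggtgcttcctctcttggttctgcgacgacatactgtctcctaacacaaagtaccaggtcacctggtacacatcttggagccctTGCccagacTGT
APOBEC3D, second domain, codons 262 to 296, also that of APOBEC3F, codons 249 to 283: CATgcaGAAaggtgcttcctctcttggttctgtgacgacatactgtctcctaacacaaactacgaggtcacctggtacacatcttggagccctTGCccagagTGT
APOBEC3H, codons 54 to 88: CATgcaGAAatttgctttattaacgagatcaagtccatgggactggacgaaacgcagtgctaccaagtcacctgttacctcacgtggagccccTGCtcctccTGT
The 111 bases of APOBEC3A and of the second domain of APOBEC3B were the same in every position, as were the 105 bases of the second domains of APOBEC3D and APOBEC3F and those of the first domains of APOBEC3B and APOBEC3F. The stretch of APOBEC3C was identical to the second domain of APOBEC3D in 96.2% of positions. Reads in these libraries come from the 3′ ends of transcripts, so the last 500 bases of each gene bear on which counts can be trusted. Among the 426 windows of 75 bases (the read length) in that end, none was shared with another gene in APOBEC3C, APOBEC3F or APOBEC3H, and 2.82% were shared in APOBEC3G. In APOBEC3B, 23.9% were also present in APOBEC3A, and in APOBEC3A 7.98% were present in genes elsewhere. In APOBEC3D, 425 of the 426 windows also belonged to an overlapping read-through gene (ENSG00000284554) that has no row in the count table, and 5 of them to APOBEC3F. Counts of APOBEC3A, APOBEC3B and APOBEC3D are therefore uncertain, and these shares do not bound by how much. The shared windows of APOBEC3B and APOBEC3G lie in APOBEC3A and bear on its counts as well. APOBEC3A had 7 to 27 counts per library, beside 92 to 662 of APOBEC3B. The antisense gene APOBEC3B-AS1, which overlaps APOBEC3B, had 0 to 4 counts per library, and whether the counting used strand was not given in the sources used here.

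Library totals ranged from 6928950 to 13298557 counts. Levels are in CPM (each count over the TMM-scaled size of its library), and the floor of 3 counts, up to which a listed 0 may reach, was 0.215 to 0.407 CPM. Such limits and intervals cover counting error only. DAXX mRNA was 33.5 to 35.9 CPM in WT and 4.69 to 6.72 CPM in DAXX_KO control libraries, and ATRX mRNA was 184 to 194 CPM in WT and 75.02 to 85.9 CPM in ATRX_KO, so each targeted transcript was lower in the libraries that carry its name. Of 10 glioblastoma and mesenchymal markers, VIM had a median of 3177 CPM and CD44 of 486 CPM over the 24 libraries, whereas S100B had 0 counts and GFAP and OLIG2 had medians of 0.118 and 0.557 CPM. These astrocytic and oligodendroglial markers were thus low, with S100B the only one without a count, and the line is called by its name. OLIG2 passed the filter in the ATRX series, where it was called lower in ATRX_KO control cells (log2 fold change −2.03, edgeR adjusted p = 0.0488) and higher with etoposide in WT and ATRX_KO. At no more than 1.66 CPM in any library, it may have passed only through its etoposide libraries, which would fix its direction with the drug. In these bulk libraries, fewer cells with a transcript and less of it per cell cannot be told apart.

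In WT cells, etoposide raised APOBEC3C, APOBEC3F and APOBEC3G in both series, and APOBEC3H, at or near 0 counts without the drug, was detected with it. APOBEC3C, a single-domain member, rose about 5-fold. APOBEC3B, the member most often tied to mutation in cancer, fell in the WT cells of the first series and was not called in those of the ATRX series. All 7 members passed the filter on low counts in each series, but APOBEC3H did so only through its etoposide libraries, which fixes its direction. It is therefore left out of the counts and medians of comparisons that use control libraries. In the DAXX series 3 of 6 members were called higher and 1 lower at an FDR of 5%, where 60.2% of the 15247 genes tested were called, 29.6% higher and 30.6% lower. In the ATRX series 4 of 6 were called higher and 0 lower, where 61.5% of 16371 genes were called, 31.7% higher and 29.8% lower. The median log2 fold change of the members was 1.09 and 1.07 respectively, beside 0.02 and 0.07 over all genes tested. Under DESeq2 and at an unadjusted p below 0.05, edgeR's count of 0 members lower in the ATRX series was also 0.

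**Figure D1:**
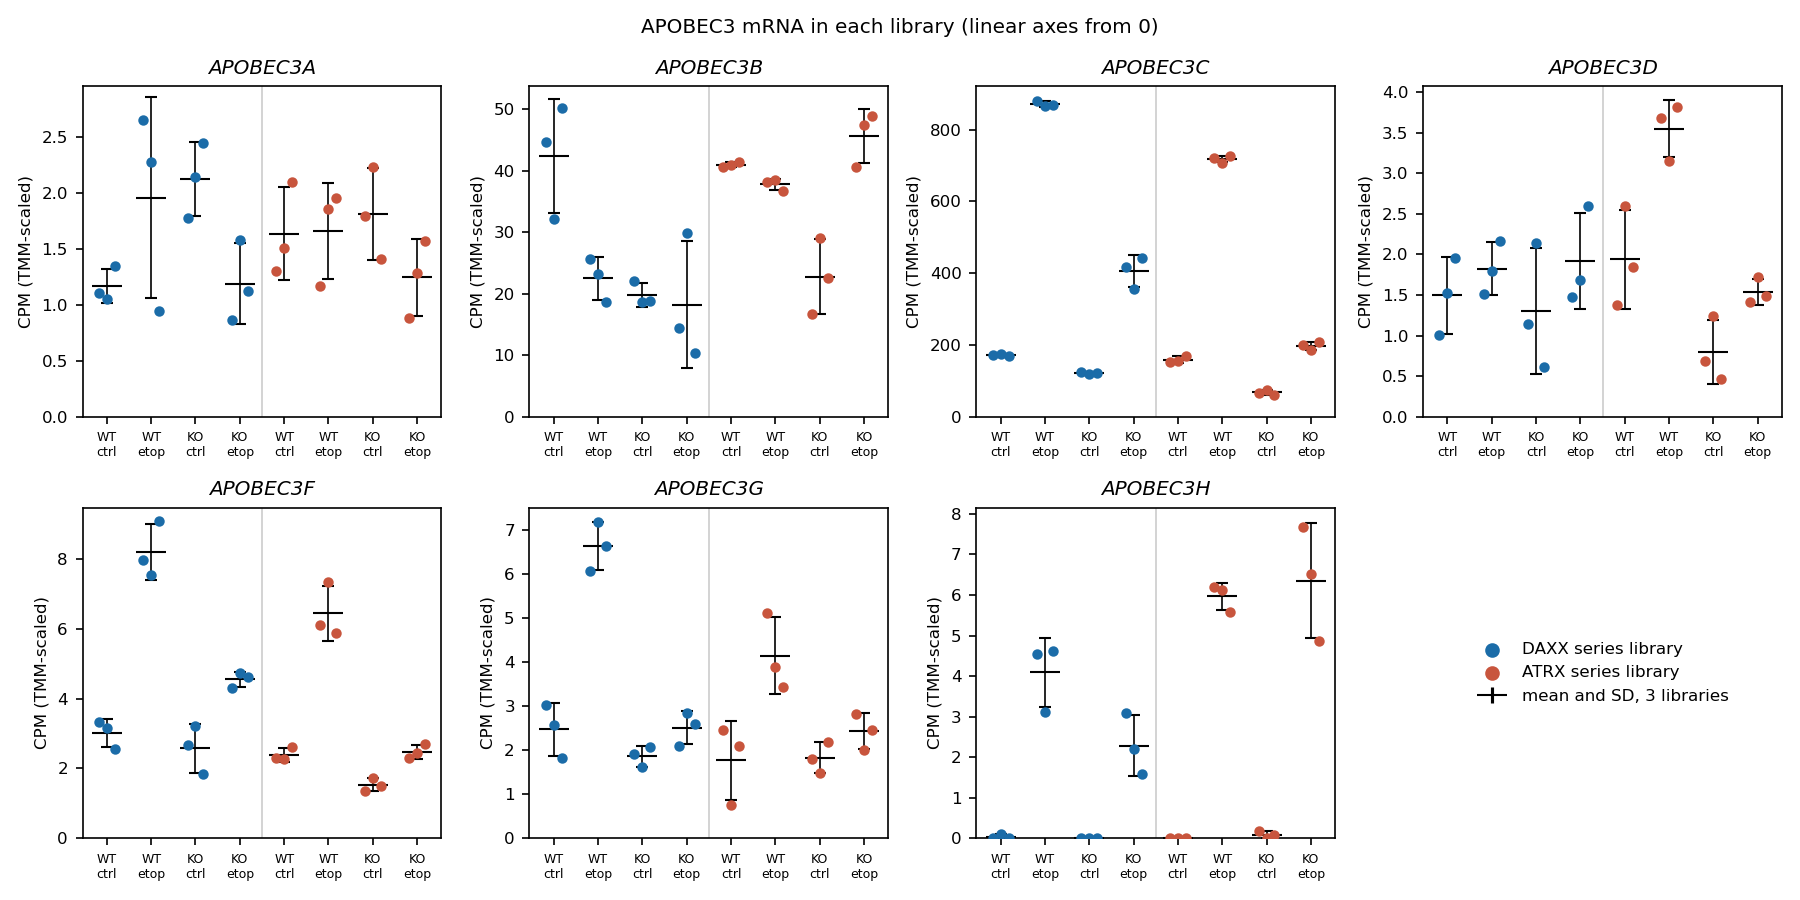
Level of each APOBEC3 gene in CPM (TMM-scaled, linear axes from 0) in each of the 24 libraries, with 1 panel per gene, the DAXX series in blue, the ATRX series in red, and the mean and SD of the 3 libraries of each group in black. APOBEC3C stands between 708 and 881 CPM in the WT etoposide libraries and below 176 CPM in all control libraries, and APOBEC3H is at or near 0 in every control library.

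APOBEC3C stood at 171, 175 and 169 CPM in WT control libraries of the DAXX series and at 881, 866 and 868 CPM with etoposide. In WT cells of the ATRX series it was 153, 155 and 170.2 CPM without and 719.8, 708 and 726 CPM with the drug. The groups did not overlap, and the gap was many times the spread between replicates. The ratio of mean CPM was 5.07 and 4.51, and the log2 fold changes were 2.36 (SE 0.07, adjusted p = 1.12e-15) and 2.20 (SE 0.08, adjusted p = 8.52e-13). Here and below, p-values come from edgeR's quasi-likelihood F test and are adjusted over all genes by the Benjamini-Hochberg method.

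APOBEC3F, a double-domain restriction factor, went from 3.33, 3.16 and 2.57 CPM to 7.97, 7.54 and 9.08 CPM in WT cells of the DAXX series. In those of the ATRX series it went from 2.30, 2.26 and 2.61 CPM to 6.10, 7.33 and 5.87 CPM. Every etoposide library lay above every control library of its series. The log2 fold changes were nearly the same, 1.45 (SE 0.22, edgeR adjusted p = 1.41e-05) and 1.45 (SE 0.21, edgeR adjusted p = 1.63e-05).

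APOBEC3G, the member first known for blocking HIV-1 that lacks Vif, was 2.48 ± 0.603 CPM (SD, n = 3) in control and 6.63 ± 0.554 CPM with etoposide in WT cells of the DAXX series. In the ATRX series it was 1.77 ± 0.899 and 4.15 ± 0.872 CPM, with a low control library at 0.753 CPM. Neither pair of groups overlapped, and the log2 fold changes were 1.42 (SE 0.25, edgeR adjusted p = 6.37e-05) and 1.24 (SE 0.34, edgeR adjusted p = 0.00439). These levels rest on 9 to 32 counts per control library and 35 to 60 per etoposide library.

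APOBEC3H, a single-domain member, had 0, 1 and 0 counts in the WT control libraries of the DAXX series and 36, 26 and 34 counts with etoposide. In the ATRX series the WT control libraries had 0, 0 and 0 counts and the etoposide libraries 69, 66 and 57. The transcript was thus seen almost only with the drug. In DAXX_KO it had 0, 0 and 0 counts in control and 25, 21 and 14 with etoposide, and in ATRX_KO 2, 0 and 1 counts in control and 87, 91 and 65 with etoposide. The same held in all 4 kinds of cells, with no overlap between control and etoposide libraries. Pooled over 3 libraries and set against their scaled sizes, the ratio was 108 in WT of the DAXX series (96 against 1 count, 95% interval of the counts 19.0 to 4316) and 76.6 in ATRX_KO (243 against 3 counts, 25.9 to 374). Where the control group had no count, the level with etoposide was set against a floor of 3 counts over the group. It was 73.5 times that floor in WT of the ATRX series and 17.7 times in DAXX_KO. These 2 values do not allow for counting error in the etoposide libraries. No test of this difference is given, since the gene was tested only because its etoposide libraries had counts.

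Because APOBEC3H showed this near-absence and appearance, the sequence around its start is given. It is the RefSeq promoter window of 250 bases before to 50 after the start, chr22:39096994-39097293 on the plus strand of GRCh38.p14, 5′ to 3′, and the capitals mark a direct repeat of 23 bases that a search found at positions 226 to 248 and 252 to 274, around the start.
APOBEC3H promoter: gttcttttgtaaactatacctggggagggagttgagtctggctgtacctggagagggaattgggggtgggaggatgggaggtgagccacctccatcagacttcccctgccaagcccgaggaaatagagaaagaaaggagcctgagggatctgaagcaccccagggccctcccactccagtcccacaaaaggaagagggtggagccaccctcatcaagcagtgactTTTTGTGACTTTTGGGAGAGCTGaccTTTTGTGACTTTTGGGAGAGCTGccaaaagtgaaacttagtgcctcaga
Searched on both strands, the window held no interferon-stimulated response element core (GAAA, any 2 bases, GAAA), which 3.57% of 35116 RefSeq windows of this length held, and no AP-1 site (TGACTCA or TGAGTCA; in 4.95%). Further patterns that were searched had no match either, among them an NF-kB site (in 12.3%), a TATA box (in 13.7%) and the CHR sequence TTTGAA (in 15.2%). This says only that these letters are not in these 300 bases. APOBEC3H was the only member with an entry in the promoter table used here.

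APOBEC3B stood at 44.7, 32.2 and 50.2 CPM in WT control libraries of the DAXX series and at 25.7, 23.2 and 18.7 CPM with etoposide, and the log2 fold change was −0.89 (SE 0.24, edgeR adjusted p = 0.00325). In the ATRX series its WT levels were 40.6, 40.9 and 41.4 CPM in control and 38.2, 38.4 and 36.7 CPM with etoposide. These groups did not overlap either, but the log2 fold change was only −0.09 (SE 0.13, edgeR adjusted p = 0.564) and not called. APOBEC3D, a double-domain restriction factor, was 1.94 ± 0.610 CPM in control and 3.55 ± 0.350 CPM under the drug in WT of the ATRX series, a log2 fold change of 0.90 (SE 0.32, edgeR adjusted p = 0.0228). That call was lost when any of 4 libraries was left out (WT control replicates 1 and 3, WT etoposide replicates 1 and 3), with adjusted p from 0.0607 to 0.102. In WT of the DAXX series APOBEC3D was at 1.01 to 1.95 CPM in control and 1.52 to 2.17 CPM with etoposide, overlapping ranges (edgeR adjusted p = 0.547).

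APOBEC3A, a single-domain deaminase known from monocytes and keratinocytes, had a mean of 1.17 to 2.12 CPM in every group and was called in none of the 13 comparisons. Ordered by level, each of its 8 groups overlapped the next. Of the compared pairs, DAXX_KO control lay above WT control (1.78 to 2.44 beside 1.05 to 1.34 CPM) and above DAXX_KO with etoposide (0.862 to 1.58 CPM). The first log2 fold change was 0.86 (SE 0.40, edgeR adjusted p = 0.0815), called with library totals alone (1.04, adjusted p = 0.0351) and with only the compared groups in the model (0.86, adjusted p = 0.0455), and the other was −0.81 (SE 0.40, edgeR adjusted p = 0.0967). Its log2 fold change with etoposide in WT of the DAXX series was 0.77 (SE 0.41, edgeR adjusted p = 0.112), and 1.08 (adjusted p = 0.0277) without WT etoposide replicate 3, which lay at 0.949 CPM beside 2.66 and 2.27 CPM. Over all single libraries left out, this value ran from 0.49 to 1.08.

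In DAXX_KO, etoposide raised APOBEC3C and APOBEC3F, and in ATRX_KO it raised APOBEC3B, APOBEC3C, APOBEC3D and APOBEC3F. APOBEC3G was not called in either knockout, and the APOBEC3B of ATRX_KO moved up where that of WT had not been called. Without APOBEC3H, 2 of 6 members were called higher and 0 lower in DAXX_KO, where 54.5% of all genes were called, 26.8% higher and 27.8% lower. In ATRX_KO 4 of 6 were called higher and 0 lower, where 49.5% were called, 24.3% higher and 25.2% lower. The medians of these 6 were 0.51 and 0.81, beside −0.0037 and 0.03 over all genes. No member was lower at an unadjusted p below 0.05 or under DESeq2 in either knockout.

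In DAXX_KO, APOBEC3C went from 125, 121 and 122 CPM to 418, 356 and 442 CPM, a ratio of 3.31 and a log2 fold change of 1.73 (SE 0.07, edgeR adjusted p = 1.78e-13). In ATRX_KO it went from 67.1, 76.0 and 61.1 CPM to 199.8, 186 and 209 CPM, a ratio of 2.91 and a log2 fold change of 1.53 (SE 0.08, edgeR adjusted p = 1.83e-10). With the drug, ATRX_KO cells thus reached a level only just above that of untreated WT cells. APOBEC3F rose by a log2 fold change of 0.84 in DAXX_KO (SE 0.24, edgeR adjusted p = 0.00678), from 2.57 ± 0.697 to 4.55 ± 0.217 CPM, and by 0.68 in ATRX_KO (SE 0.24, edgeR adjusted p = 0.0260), from 1.53 ± 0.189 to 2.47 ± 0.200 CPM. The call in ATRX_KO was lost without any of 4 libraries (KO control replicates 1 and 3, KO etoposide replicates 2 and 3), with adjusted p from 0.0504 to 0.0861, and under DESeq2 (adjusted p = 0.0534).

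APOBEC3B in ATRX_KO was 16.7, 29.0 and 22.6 CPM in control and 40.6, 47.4 and 48.9 CPM with etoposide. All 3 drug-treated libraries were above the untreated ones, and the log2 fold change was 0.99 (SE 0.14, edgeR adjusted p = 1.28e-05). In DAXX_KO it was 22.1, 18.6 and 18.8 CPM in control and 14.4, 29.96 and 10.4 CPM with etoposide, a spread wider than any difference of the means (log2 fold change −0.10, SE 0.26, edgeR adjusted p = 0.768). Without KO etoposide replicate 2, at 29.96 CPM, that value was −0.68 (adjusted p = 0.00696). Over all single libraries left out it ran from −0.68 to 0.18. APOBEC3D in ATRX_KO was 0.798 ± 0.398 CPM in control and 1.54 ± 0.158 CPM with etoposide (log2 fold change 0.94, SE 0.38, edgeR adjusted p = 0.0489), and this call was lost without any of 5 libraries (adjusted p from 0.0628 to 0.191) and under DESeq2 (adjusted p = 0.0542). The log2 fold change of APOBEC3G was 0.44 in DAXX_KO (SE 0.29, edgeR adjusted p = 0.219) and 0.39 in ATRX_KO (SE 0.35, edgeR adjusted p = 0.373).

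**Figure D2:**
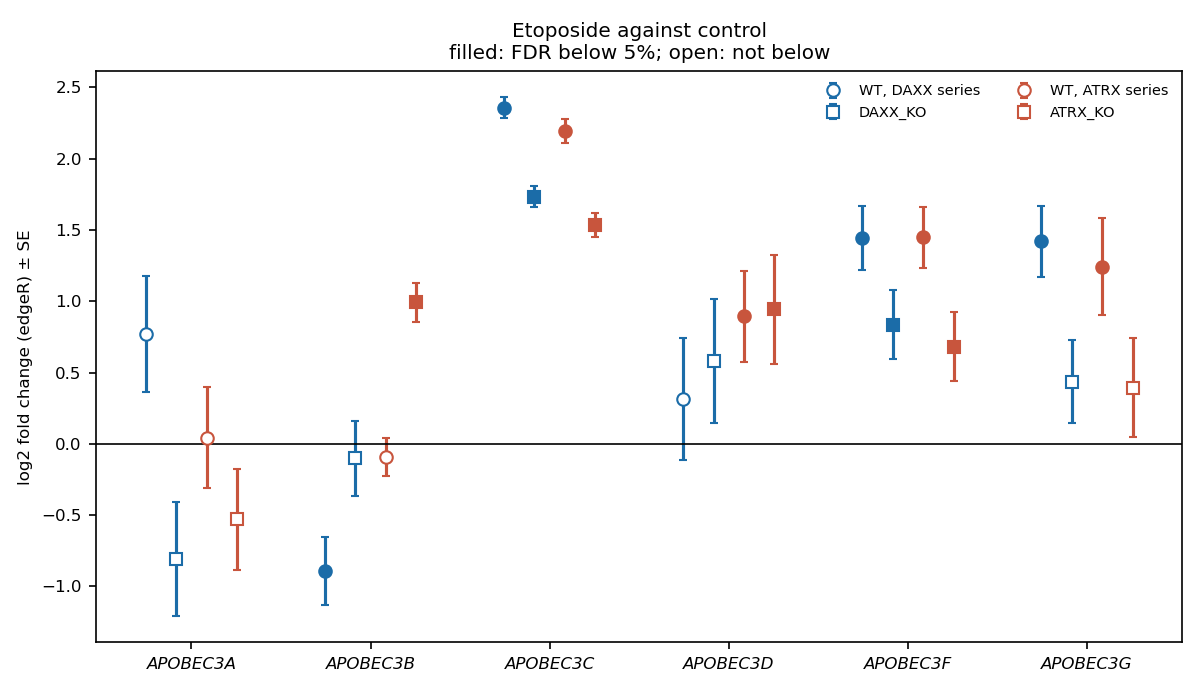
Log2 fold change of etoposide against control with its SE (edgeR) for 6 of the 7 APOBEC3 genes in WT cells of each series (circles), DAXX_KO (blue squares) and ATRX_KO (red squares), where filled symbols passed an FDR of 5%. APOBEC3H is left out because its control libraries were at or near 0 counts, and APOBEC3C lies highest in each kind of cells, between 1.53 and 2.36.

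Markers of leukocytes, in which APOBEC3 genes are typically abundant, were low and had higher summed levels with etoposide. The summed level of 8 lymphocyte markers was 0.334 to 1.33 CPM in control libraries and 1.08 to 3.71 CPM in etoposide libraries, and NKG7, CD3E and CD2 had 2, 8 and 23 counts over all 24 libraries. PTPRC, the pan-leukocyte marker, had a median of 0.485 CPM. None of the 8 lymphocyte markers passed the filter in the DAXX series and 2 did in the ATRX series, where CD3D was called higher with etoposide in WT. The summed level of 6 monocyte and macrophage markers was 21.5 to 34.2 CPM in control and 35.3 to 45.6 CPM with etoposide, most of it CD68, a lysosomal protein that many cell types express, while CD14 had a median of 0.201 CPM and AIF1 6 counts in all. CSF1R, a macrophage growth factor receptor gene, had a median of 3.43 and at most 8.19 CPM. It was called higher in DAXX_KO than in WT, by 1.24 in control (edgeR adjusted p = 7.39e-05) and 0.56 with etoposide (edgeR adjusted p = 0.0462), was lower with etoposide in DAXX_KO (−0.67, edgeR adjusted p = 0.00946), and was not called for etoposide in the other cells. LYZ and ITGAM had 224 and 140 counts over all libraries, and ITGAM was called higher with etoposide in WT and ATRX_KO of the ATRX series. ITGAM and CD3D had medians of 0.169 and 0.227 CPM over the 24 libraries. They may have passed the filter only through their etoposide libraries, which would fix this direction. The 2 keratinocyte markers summed to at most 0.587 CPM. The summed level of the 10 glioblastoma markers was 4457 to 7474 CPM in control and 2275 to 3384 CPM with etoposide. VIM was the largest of them by median (3177 CPM, beside 486 CPM for CD44), so the sum mainly follows VIM. The part of these markers in the APOBEC3 result was not tested.

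The response of APOBEC3C was smaller in the knockouts than in WT. The difference of responses (that of the knockout minus that of WT, a log2 value) was −0.62 for DAXX_KO (SE 0.10, edgeR adjusted p = 0.000263) and −0.66 for ATRX_KO (SE 0.11, edgeR adjusted p = 0.00107). For APOBEC3B in ATRX_KO the difference was 1.09 (SE 0.19, edgeR adjusted p = 0.00118), the response being larger than in WT. Again without APOBEC3H, 1 of 6 members in the DAXX series was called for this difference, lower, where 14.2% of genes were called, 8.38% higher and 5.79% lower. In the ATRX series 1 was called higher and 1 lower, where 16% were called, 8.36% higher and 7.64% lower. The member medians were −0.62 and −0.62, beside 0.02 and −0.0095 over all genes.

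For APOBEC3F and APOBEC3G the differences of responses did not pass the test. They were −0.61 (SE 0.34) and −0.99 (SE 0.39) in the DAXX series, with edgeR adjusted p of 0.255 and 0.0999, and −0.77 (SE 0.32) and −0.85 (SE 0.49) in the ATRX series, with 0.122 and 0.267. These values were of the size seen for APOBEC3C or above it and had larger SEs. The APOBEC3B difference in DAXX_KO was 0.79 (SE 0.35, edgeR adjusted p = 0.154), and 1.08 (adjusted p = 0.0198) without KO etoposide replicate 3, which lay lowest at 10.4 CPM. Over all single libraries left out it ran from 0.22 to 1.08. The APOBEC3A difference there was −1.58 (SE 0.57, edgeR adjusted p = 0.0733), and −1.89 (adjusted p = 0.0297) without WT etoposide replicate 3. Its range over single libraries left out was −1.89 to −1.30. For APOBEC3H the response cannot be compared between kinds of cells, since the control levels that it is measured from are at or under the floor.

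Without drug, APOBEC3B and APOBEC3C were lower than in WT in both knockouts, and APOBEC3D and APOBEC3F were lower in ATRX_KO. Without APOBEC3H, 2 of 6 members were called lower and 0 higher in DAXX_KO, where 53.4% of genes were called, 26.7% higher and 26.6% lower. In ATRX_KO 4 of 6 were called lower and 0 higher, where 41.8% were called, 20.8% higher and 21% lower. The member medians were −0.33 and −0.74, beside 0.02 and 0.02 over all genes. At an unadjusted p below 0.05, 1 member was higher in each knockout (APOBEC3A in DAXX_KO, and APOBEC3H, with 3 counts against 0, in ATRX_KO), and DESeq2 called 0 higher.

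The APOBEC3B of DAXX_KO, at 18.6 to 22.1 CPM, lay below its WT range of 32.2 to 50.2 CPM, with a log2 fold change of −1.09 (SE 0.24, edgeR adjusted p = 0.000822). In ATRX_KO, at 16.7 to 29.0 CPM beside 40.6 to 41.4 CPM in WT, it was −0.84 (SE 0.14, edgeR adjusted p = 0.000103). APOBEC3C at 121 to 125 CPM in DAXX_KO was below its WT libraries, which started at 169 CPM (log2 fold change −0.49, SE 0.07, edgeR adjusted p = 1.23e-05). At 61.1 to 76.0 CPM in ATRX_KO it was further below WT, where the lowest library had 153 CPM (−1.22, SE 0.08, edgeR adjusted p = 4.74e-09). These 4 differences were larger than the spread between replicates and stayed called with each library left out in turn.

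In ATRX_KO control cells, APOBEC3D was at 0.683, 1.24 and 0.470 CPM beside 1.38, 2.59 and 1.85 CPM in WT, a log2 fold change of −1.27 (SE 0.37, edgeR adjusted p = 0.0114). The call was lost without WT control replicate 2 (adjusted p = 0.0669) or KO control replicate 3 (adjusted p = 0.0540). APOBEC3F was at 1.37, 1.74 and 1.49 CPM beside 2.30, 2.26 and 2.61 CPM, a log2 fold change of −0.63 (SE 0.24, edgeR adjusted p = 0.0452). Leaving out any of the 6 compared libraries ended this call (adjusted p from 0.0532 to 0.128), as did DESeq2 (adjusted p = 0.0901). Both rest on few counts, 6 to 31 per library. In DAXX_KO the log2 fold changes of APOBEC3D, APOBEC3F and APOBEC3G were −0.20, −0.24 and −0.41, none called (edgeR adjusted p 0.740, 0.457 and 0.249), and that of APOBEC3G in ATRX_KO was 0.04 (edgeR adjusted p = 0.941).

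With etoposide, APOBEC3C and APOBEC3F were lower than in WT in both knockouts, APOBEC3G in DAXX_KO and APOBEC3D in ATRX_KO. In DAXX_KO 3 of 7 members were called lower and 0 higher, where 53% of genes were called, 27.9% higher and 25.2% lower. In ATRX_KO 3 of 7 were called lower and 0 higher, where 45.9% were called, 23% higher and 22.9% lower. The member medians were −0.85 and −0.80, beside 0.01 and 0.01 over all genes, and no member was higher at an unadjusted p below 0.05 or under DESeq2. APOBEC3B in ATRX_KO was called higher with library totals alone (0.34, adjusted p = 0.0393) and with only the compared groups in the model (0.25, adjusted p = 0.0459).

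APOBEC3C was at 356 to 442 CPM in DAXX_KO beside 866 to 881 CPM in WT, a log2 fold change of −1.11 (SE 0.07, edgeR adjusted p = 1.17e-10). In ATRX_KO it was at 186 to 209 CPM beside 708 to 726 CPM in WT, a log2 fold change of −1.88 (SE 0.08, edgeR adjusted p = 2.9e-11). No library of either knockout came near the WT range. APOBEC3F was at 4.31, 4.73 and 4.62 CPM in DAXX_KO (log2 fold change −0.85, SE 0.21, edgeR adjusted p = 0.00222) and at 2.29, 2.43 and 2.69 CPM in ATRX_KO (−1.40, SE 0.21, edgeR adjusted p = 4.12e-05). APOBEC3G in DAXX_KO was at 2.09, 2.84 and 2.59 CPM beside 6.07, 7.18 and 6.64 CPM in WT, a log2 fold change of −1.40 (SE 0.25, edgeR adjusted p = 9.69e-05). In ATRX_KO, at 2.82, 2.00 and 2.47 CPM beside 5.12, 3.90 and 3.43 CPM, its groups did not overlap but the call was missed (−0.80, SE 0.33, edgeR adjusted p = 0.0539). APOBEC3D in ATRX_KO was at 1.41 to 1.72 CPM beside 3.16 to 3.82 CPM in WT (−1.22, SE 0.33, edgeR adjusted p = 0.00550).

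APOBEC3H was at 3.08, 2.21 and 1.58 CPM in DAXX_KO with etoposide beside 4.55, 3.11 and 4.61 CPM in WT, ranges that only just parted (log2 fold change −0.85, SE 0.36, edgeR adjusted p = 0.0599). Without KO etoposide replicate 1 it was −1.10 (adjusted p = 0.0434), and with all 24 libraries in the model −0.84 (adjusted p = 0.0394). Over single libraries left out it ran from −1.10 to −0.64. In ATRX_KO, at 7.68, 6.51 and 4.86 CPM, it overlapped WT at 6.19, 6.13 and 5.58 CPM (0.06, SE 0.25, edgeR adjusted p = 0.872). APOBEC3B with etoposide was not called in either knockout. Its log2 fold change was −0.30 in DAXX_KO (SE 0.26, edgeR adjusted p = 0.344), −0.87 (adjusted p = 0.000886) without KO etoposide replicate 2, and 0.25 in ATRX_KO (SE 0.13, edgeR adjusted p = 0.144), where its libraries at 40.6 to 48.9 CPM all lay above those of WT at 36.7 to 38.4 CPM. For APOBEC3A in DAXX_KO it was −0.72 (SE 0.41, edgeR adjusted p = 0.145), and −1.03 (adjusted p = 0.0385) without WT etoposide replicate 3.

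**Figure D3:**
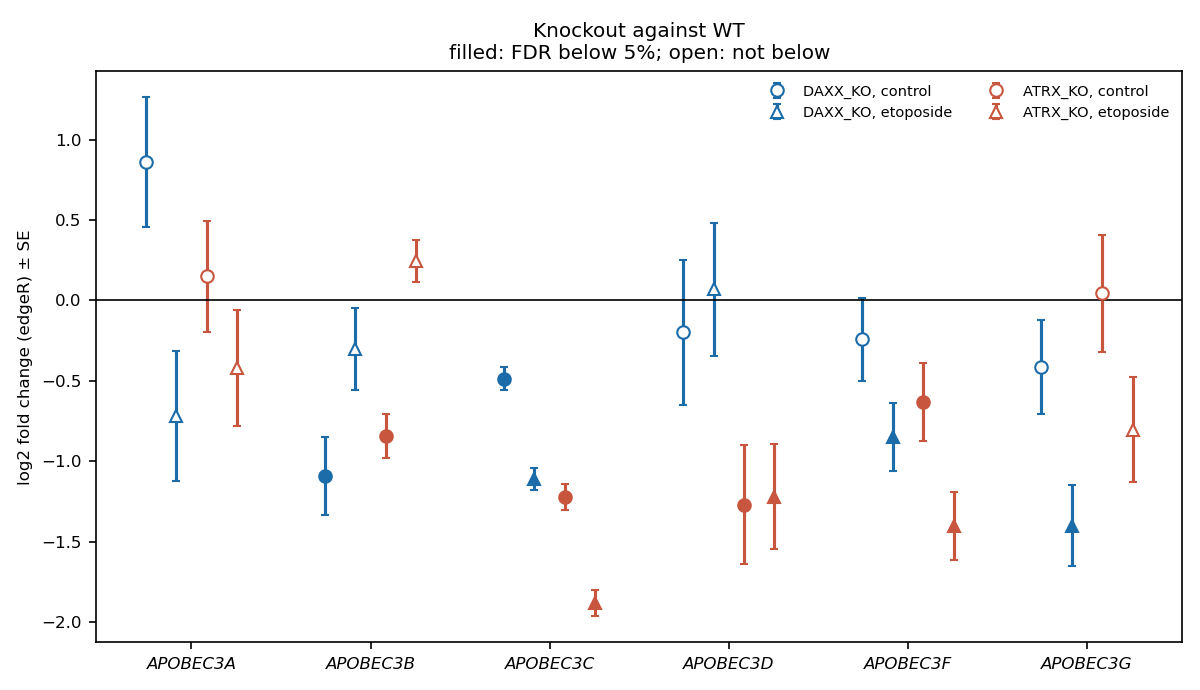
Log2 fold change of each knockout against WT with its SE (edgeR) for 6 of the 7 APOBEC3 genes, in control cells (circles) and with etoposide (triangles), DAXX_KO in blue and ATRX_KO in red, where filled symbols passed an FDR of 5%. Every filled symbol lies below 0, and the lowest is APOBEC3C in ATRX_KO with etoposide at −1.88.

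The knockouts differed in APOBEC3C. In 1 model of all 24 libraries, the effect of DAXX_KO minus that of ATRX_KO was 0.74 in control cells (SE 0.11, edgeR adjusted p = 5.9e-06) and 0.75 with etoposide (SE 0.10, edgeR adjusted p = 2.64e-06), so the level was reduced less in DAXX_KO. APOBEC3C was the 1 member called in each, of 6 without APOBEC3H in control cells and of 7 with etoposide. Of 16674 genes, 34.1% were called in control, 17% higher and 17.2% lower, and 34.5% with etoposide, 17.7% higher and 16.8% lower. For APOBEC3B with etoposide the difference was −0.57 (SE 0.32, edgeR adjusted p = 0.182), and −1.14 (adjusted p = 0.00105) without DAXX_KO etoposide replicate 2. Over single libraries left out it ran from −1.14 to −0.29. For APOBEC3D it was 1.07 (SE 0.58, edgeR adjusted p = 0.168) in control and 1.27 (SE 0.52, edgeR adjusted p = 0.0624) with etoposide, differences that these counts could not resolve. The WT control libraries of the series were also compared, where series and any batch cannot be told apart. There edgeR and DESeq2 each called 0 of 6 members (APOBEC3H, with 1 count against 0, is left out), and 0 had an unadjusted p below 0.05. Of all genes, 13.2% were called, 7.22% higher and 6.01% lower. The log2 fold changes of APOBEC3B and APOBEC3C there were −0.05 (SE 0.21) and −0.11 (SE 0.08). The WT etoposide groups of the series were not tested against each other. Their ranges, DAXX series first, parted for APOBEC3B (18.7 to 25.7 beside 36.7 to 38.4 CPM) and APOBEC3C (866 to 881 beside 708 to 726 CPM). They also parted for APOBEC3D, APOBEC3F, APOBEC3G and APOBEC3H, but not for APOBEC3A. The share of all genes whose ranges parted in this way was not counted.

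Genes around the cluster had negative medians in the knockouts as well. The median log2 fold change of the 60 nearest tested genes on chromosome 22 (30 on each side) was −0.70 in DAXX_KO control cells and −0.73 with etoposide, and −0.50 and −0.51 in ATRX_KO. Of 22 protein-coding genes within 500 kb of the cluster, 18 were tested, of which 9 were lower and 1 higher in DAXX_KO control cells, where 26.6% of all genes were lower and 26.7% higher, and 12 were lower and 2 higher in ATRX_KO, where 21% were lower and 20.8% higher. TOMM22, which encodes an import receptor of mitochondria, fell by 1.503 and 1.31 on the log2 scale, and RPL3, a ribosomal protein gene, by 0.55 and 0.25. CBX6, a Polycomb gene, fell by 0.57 and 1.05, and ATF4, a stress-response transcription factor, fell by 1.23 in DAXX_KO and was not called in ATRX_KO (−0.05). DDX17, an RNA helicase gene, was called in neither (−0.08 and −0.23). NPTXR was the 1 flanking gene called higher in DAXX_KO control cells, by 1.56 (edgeR adjusted p = 3.26e-11). The median over the 377 tested genes of chromosome 22 was −0.38 in DAXX_KO control cells, the lowest of the autosomes, and over 393 genes it was −0.41 in ATRX_KO, where only chromosome 21 was lower, at −0.75.

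Set against the neighbours' median, APOBEC3C in DAXX_KO control cells was higher by 0.22 on the log2 scale, turning its direction, and APOBEC3B stayed lower, at −0.39. The uncalled APOBEC3D, APOBEC3F and APOBEC3G there were at 0.51, 0.46 and 0.29. In ATRX_KO control cells the values relative to the neighbours were −0.34 for APOBEC3B, −0.72 for APOBEC3C, −0.77 for APOBEC3D and −0.13 for APOBEC3F. With etoposide in DAXX_KO, APOBEC3C was at −0.38, APOBEC3F at −0.12 and APOBEC3G at −0.67 relative to the neighbours, and the uncalled APOBEC3B at 0.43. In ATRX_KO with etoposide APOBEC3C was at −1.37, APOBEC3D at −0.71 and APOBEC3F at −0.89. These values have no test. The part of the chromosomal surroundings in the lower APOBEC3 levels was not tested, since DNA copy number was not analysed here. For the etoposide response the neighbours' medians were small, 0.15 and 0.14 in WT of the DAXX and ATRX series, 0.09 in DAXX_KO and 0.02 in ATRX_KO, and for the difference of responses they were 0.02 and −0.06.

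**Figure D4:**
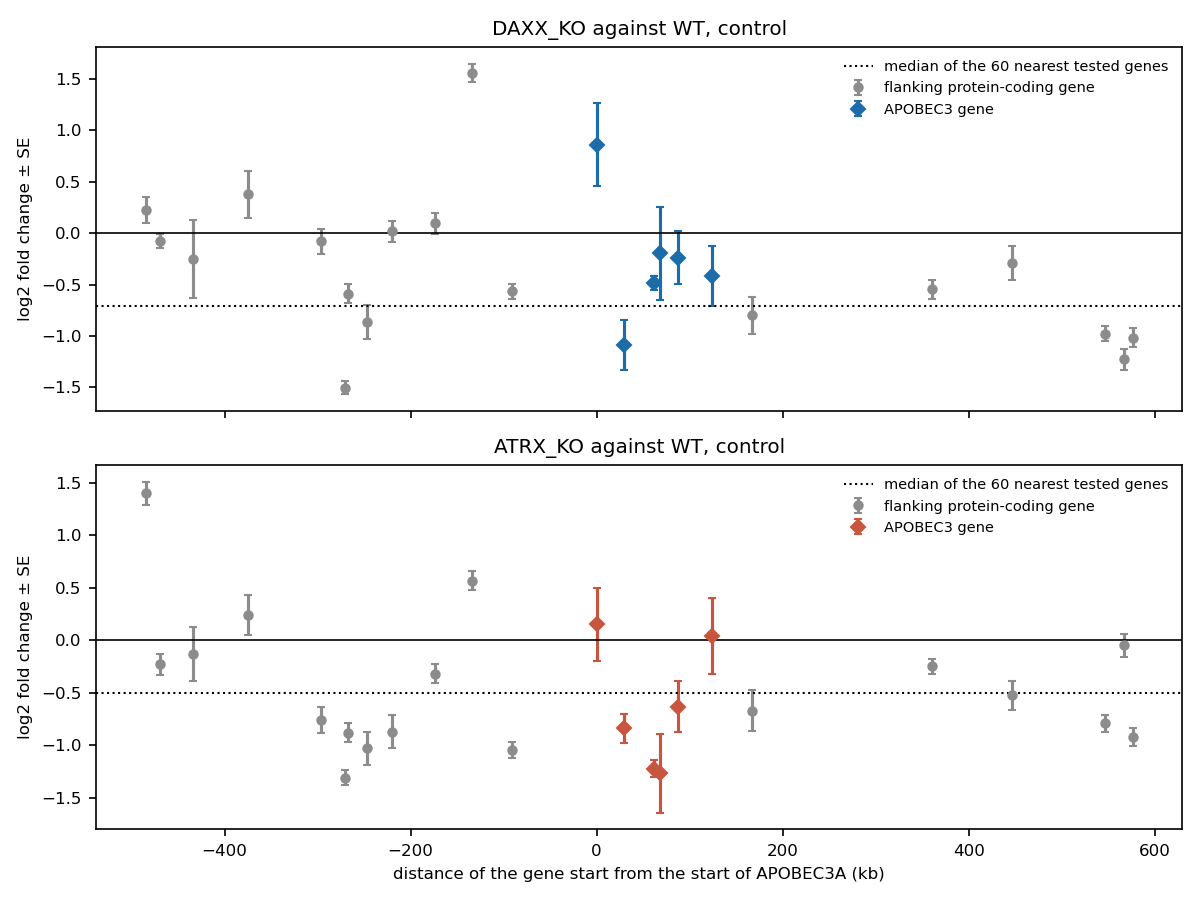
Log2 fold change with its SE (edgeR) of each knockout against WT in control cells, plotted by the distance of the gene start from the start of APOBEC3A in kb, for APOBEC3 genes (diamonds) and the 18 tested flanking protein-coding genes (grey), with the median of the 60 nearest tested genes as a dotted line. The dotted line lies at −0.70 in DAXX_KO and −0.50 in ATRX_KO, and APOBEC3H is left out because its control libraries were at or near 0 counts.

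Ordered by group mean, APOBEC3C was lowest in ATRX_KO control (68.0 ± 7.49 CPM), followed by DAXX_KO control (123 ± 2.07 CPM) and the WT controls of the ATRX series (159 ± 9.43 CPM) and the DAXX series (172 ± 3.10 CPM), the only neighbours in the order whose ranges overlapped. Above them came ATRX_KO with etoposide (198 ± 11.3 CPM), DAXX_KO with etoposide (406 ± 44.3 CPM), WT of the ATRX series with etoposide (718 ± 8.81 CPM) and WT of the DAXX series with etoposide (871 ± 8.11 CPM). APOBEC3F ended in the same way, with DAXX_KO, WT of the ATRX series and WT of the DAXX series with etoposide as its 3 highest groups and no overlap among them. APOBEC3B had another order. Its highest means were ATRX_KO with etoposide (45.6 ± 4.40 CPM) and the WT controls of the DAXX series (42.4 ± 9.22 CPM) and ATRX series (41.0 ± 0.433 CPM), whose ranges overlapped, and its lowest were the DAXX_KO groups (18.2 ± 10.3 CPM with etoposide and 19.9 ± 1.96 CPM in control), which overlapped as well. The highest APOBEC3H means, 6.35 ± 1.42 CPM in ATRX_KO and 5.97 ± 0.336 CPM in WT of the ATRX series with etoposide, did not part. In APOBEC3G, all groups but the WT etoposide ones overlapped their neighbours in the order, with means between 1.77 and 2.51 CPM.

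Over the 24 libraries, which share the contrasts above, the log2 levels of APOBEC3C and APOBEC3F had a Pearson correlation of 0.961, those of APOBEC3C with APOBEC3G 0.790 and with APOBEC3H 0.764. APOBEC3B had correlations between −0.109 and 0.228 with the other members. Among the 15038 genes tested in both series, the 3 most like APOBEC3C were BLVRB (0.982), a biliverdin reductase gene, DGKA (0.980), a diacylglycerol kinase gene, and SCAMP3 (0.976), a membrane trafficking gene. The 3 most like APOBEC3F were APOBEC3C itself, DGKA (0.956) and RP9 (0.944). APOBEC3H was most like SATL1 (0.982), SLFN5 (0.980), of the schlafen family, and SESN2 (0.980), a stress-response sestrin gene. For APOBEC3B the leading genes were WDR26 (0.860), PNRC2 (0.845) and ARHGEF2 (0.837), for APOBEC3G an unnamed gene (ENSG00000182500, 0.859), ZBTB11 (0.859) and SRA1 (0.852), and for APOBEC3D SHC4 (0.819), FLCN (0.800) and GALNT16 (0.794). APOBEC3A had no gene above 0.654 (ST8SIA6-AS1). These are descriptions over libraries in which most variation follows etoposide and the knockouts.

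Of the other APOBEC genes, APOBEC1, APOBEC2 and APOBEC4 did not pass the filter on low counts in either series, with mean levels over the 24 libraries of 0.0292, 0.00825 and 0.0549 CPM. Genes that act on uracil in DNA were called in both directions with the drug. Of 11 uracil and abasic site repair genes, all tested, 7 were lower and 3 higher in DAXX series WT cells (median −0.30). In WT of the ATRX series 6 were lower and 3 higher (median −0.33). The shares over all genes were 30.6% and 29.8% lower, and 29.6% and 31.7% higher, in the DAXX and ATRX series respectively. DUT, which keeps uracil out of DNA, fell by 1.38 and 1.18 on the log2 scale, UNG by 1.09 and 1.35, and TDG, a thymine DNA glycosylase, rose by 1.08 and 1.71. MBD4, another glycosylase, fell by 0.24 in the DAXX series and was not called in the ATRX series (−0.23). HMCES, which shields abasic sites, fell by 0.70 and 0.74. In control cells 4 of these genes were lower and 3 higher in DAXX_KO, and 4 lower and 1 higher in ATRX_KO. There 26.6% of all genes were lower and 26.7% higher in DAXX_KO, and 21% and 20.8% in ATRX_KO.

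Regulators that have been tied to APOBEC3 transcription were counted from fixed lists. Of all genes tested, 29.6% were higher and 30.6% lower with etoposide in WT of the DAXX series, and 31.7% and 29.8% in the ATRX series. Of 12 genes of the DREAM/MuvB and E2F complexes, which repress or drive cell cycle genes, 11 were lower and 1 higher in DAXX series WT cells (median −0.91). In WT of the ATRX series 10 were lower and 1 higher (median −1.08). TFDP1 fell by 0.74 and 0.81, RBBP4 by 1.07 and 1.10, and E2F1 by 0.42 and 0.31, and LIN37 was the 1 that rose, by 0.90 and 0.63, whereas MYBL2 fell by 0.30 in the DAXX series and was not called in the ATRX series (0.04). Of 5 NF-kB subunit genes, 2 were higher and 0 lower in WT of the DAXX series and 2 higher and 1 lower in the ATRX series (medians −0.01 and 0.11). RELB rose by 1.89 and 1.52 and NFKB2 by 0.97 and 0.57, NFKB1 was not called (−0.01 and −0.14), and RELA stood at −0.01 in the DAXX series, not called, and fell by 0.25 in the ATRX series. In control cells of the knockouts, 3 NF-kB genes were higher in DAXX_KO and 4 in ATRX_KO, with 0 lower in each. There 26.7% of all genes were higher and 26.6% lower in DAXX_KO, and 20.8% and 21% in ATRX_KO. CDKN1A, a cell cycle inhibitor gene, and MDM2, a ubiquitin ligase gene, read as a check of the drug, rose by 5.24 and 4.05 in WT of the DAXX series and by 5.25 and 4.20 in the ATRX series. Both were also higher with etoposide in both knockouts.

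Interferon signalling induces several APOBEC3 genes in other cells, and its genes were called in both directions with the drug, more of them higher. Of all genes tested, 29.6% were higher and 30.6% lower with etoposide in WT of the DAXX series. In WT of the ATRX series these shares were 31.7% and 29.8%. Of 8 interferon pathway genes, 4 were higher and 2 lower with etoposide in WT of the DAXX series and 3 higher and 2 lower in the ATRX series (medians 0.42 and 0.29). IRF1 was not called (0.23 and 0.13), IRF3 rose by 0.62 and 0.44, and IFNAR1 fell by 0.39 and 0.65. IRF7 rose most, by 3.19 and 2.52. Of 24 interferon-stimulated genes, in DAXX series WT cells 11 of 20 tested were higher and 3 lower (median 0.80) and 12 of 21 higher and 2 lower in the ATRX series (median 0.83). IFITM3 rose by 0.60 and 0.29 and IFI6 by 1.09 and 0.83, but IFI44L and OAS3 fell by 0.55 and 0.52 in the DAXX series and were not called in the ATRX series (0.28 and −0.14). In control cells 12 of these genes were higher and 1 lower in DAXX_KO, and 6 higher and 5 lower in ATRX_KO. Over all genes in control cells, 26.7% were higher and 26.6% lower in DAXX_KO, and 20.8% and 21% in ATRX_KO. Of 14 other restriction genes, 13 were tested. With etoposide 4 were higher and 4 lower in WT of the DAXX series and 5 higher and 6 lower in the ATRX series (medians −0.14 and −0.14), with TRIM22 up by 2.10 and 2.41 and ZC3HAV1 down by 0.36 and 0.68 on the log2 scale. SERINC3 was not called (−0.15 and −0.14), RNASEH2C rose by 0.25 and 0.39, and RNASEH2A was at −0.15 in the DAXX series, not called, and fell by 0.20 in the ATRX series. In control cells 5 of them were higher and 2 lower in DAXX_KO, and 3 higher and 3 lower in ATRX_KO.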

How the data were processed

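Polyadenylated RNA of 24 U87-T samples was sequenced as QuantSeq 3′ mRNA libraries. The authors aligned reads to hg19 with STAR and estimated gene counts with RSEM (version 1.2.3 in the submitters' processing notes) against an Ensembl GRCh37 annotation. The deposited values were whole counts per gene, not normalized, for 57736 gene IDs, of which 55501 (98.8% of counts) matched GENCODE 44.

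Groups were taken from the sample titles. The study states in general terms that its experiments had biological replicates. Neither it nor the labels say how these libraries were replicated, so p-values measure the spread between these samples, which may be technical in part. Differences were tested on counts by the quasi-likelihood method of edgeR (4.0.16, under R 4.3.3) after TMM scaling and filterByExpr (minimum count 10, total 15). The 12 libraries of each series entered 1 model with 4 groups, and comparisons across series used 1 model of 24 libraries and 8 groups. P-values were adjusted over all genes tested (Benjamini-Hochberg, FDR 5%). Comparisons within a series share libraries. The SE was derived from the log2 fold change and its F statistic. Intervals of pooled count ratios are 95% exact intervals. Tests compared levels between groups, never between genes. The procedure was tested on simulated data.

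Alternatives were DESeq2 1.42.0, size factors of DESeq2 type (RLE), library totals alone, no filter, at least 10 counts in every library, a replicate block, other sample sets in the model, subtraction of the median of 60 neighbouring genes, and each library left out. Replicate pairs differed by more than sampling noise (chi-square per degree of freedom 2.16 to 17.1 over 24 pairs). The members, the gene lists (other APOBEC genes, uracil repair, NF-kB, DREAM/MuvB and E2F, interferon pathway, interferon-stimulated, other restriction and flanking genes, and cell type markers) and the tests were chosen with earlier results of these data known. The genes named were all members, checks of knockout and drug, the 3 genes most correlated with each member other than APOBEC3A, for which only the first is printed, and up to 4 genes per list by mean CPM. TDG, LIN37, IRF7, TRIM22, TOMM22, NPTXR, OLIG2 and the leukocyte markers given singly were named after their values were seen. Figures were drawn with matplotlib 3.10.9. Some genes of these lists are not reported here.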

Additional observations from a re-analysis of the deposited data

Results flagged for a closer look

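The response of APOBEC3C to etoposide differed between knockout and WT cells in each series by a test of the difference itself. It was −0.62 on the log2 scale in DAXX_KO minus WT (edgeR adjusted p = 0.000263) and −0.66 in ATRX_KO minus WT (edgeR adjusted p = 0.00107). The response of APOBEC3B differed in the ATRX series, by 1.09 (edgeR adjusted p = 0.00118). The effect of DAXX_KO on APOBEC3C differed from that of ATRX_KO by 0.74 in control cells (edgeR adjusted p = 5.9e-06) and by 0.75 with etoposide (edgeR adjusted p = 2.64e-06). The latter 2 values compare series as well as clones, which cannot be told apart.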

How the results depend on the processing

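The count of members called, here of all 7 with APOBEC3H, moved with the processing, and the largest relative moves are given first. With no filter on low counts it was 2 in place of 1 for the difference of responses in the DAXX series and for the difference of knockout effects with etoposide. With only the compared groups in the model it was 5 in place of 3 for ATRX_KO with etoposide. With at least 10 counts in every library, fewer members are tested, and 2 in place of 5 were called for etoposide in WT of the ATRX series. For etoposide in ATRX_KO, 3 in place of 5 were called under DESeq2, without the filter, with at least 10 counts in every library and with only the compared groups. With single libraries left out, the counts were 2 to 3 for ATRX_KO control cells, 3 to 5 for etoposide in ATRX_KO, and 1 to 2 for both the difference of responses in the DAXX series and that of knockout effects with etoposide. They were 4 to 5 for etoposide in WT of the ATRX series. Over all settings, counts ran from 2 to 3 in DAXX_KO control cells and from 3 to 4 in DAXX_KO with etoposide. For etoposide they ran from 4 to 6 in WT of the DAXX series and from 2 to 4 in DAXX_KO. The lowest count for ATRX_KO with etoposide was 2. Between WT controls, 2206 genes of all were called, and 1106 without DAXX series WT control replicate 3 and 1373 without ATRX series WT control replicate 3. The causes were not tested.

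Directions turned for APOBEC3C in DAXX_KO control cells relative to neighbouring genes (0.22), and for APOBEC3B between WT controls with library totals alone (0.0058). Relative to neighbouring genes, uncalled values also turned for APOBEC3D, APOBEC3F and APOBEC3G in DAXX_KO control cells (0.51, 0.46 and 0.29), for APOBEC3A and APOBEC3B in DAXX_KO with etoposide (0.0088 and 0.43), and for APOBEC3A in ATRX_KO with etoposide (0.0916) and for etoposide in WT of the ATRX series (−0.10). With single libraries left out, uncalled values crossed 0. Those of APOBEC3D ran from −0.74 to 0.15 in DAXX_KO control cells, −0.21 to 0.22 with etoposide, and −0.0856 to 0.81 and −0.23 to 0.51 for the differences of responses. Those of APOBEC3B ran from −0.68 to 0.18 for etoposide in DAXX_KO and −0.21 to 0.0846 between WT controls. Those of APOBEC3A ran from −0.0266 to 0.36 in ATRX_KO control cells and −0.11 to 0.25 for etoposide in WT of the ATRX series. APOBEC3G in ATRX_KO control cells ran from −0.31 to 0.37, and APOBEC3H in ATRX_KO with etoposide from −0.0937 to 0.22. Library totals alone shifted the median of all genes by 0.18 in DAXX_KO control cells.

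Replicate numbers did not pair the samples (correlations of deviations −0.288 to 0.0601 over 36 pairs). With the replicate block, APOBEC3F in ATRX_KO control cells (adjusted p = 0.0604) and APOBEC3D with etoposide in ATRX_KO (adjusted p = 0.0518) were not called, and APOBEC3G in ATRX_KO with etoposide was (−0.81, adjusted p = 0.0418). Low counts limit APOBEC3A, APOBEC3D, APOBEC3F, APOBEC3G and APOBEC3H.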
